A study of Mus musculus with 29 samples.

Results

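The 76 genes described here encode proteins of the cytosolic ribosome, the particle that translates messenger RNA in the cytoplasm. They were chosen by name: every row of the count table named Rpl or Rps followed by a number, with at most 1 letter a, x or y after it, together with Rpsa, Rplp0, Rplp1 and Rplp2, provided that its counts summed to at least 1000 over all mice. This gave 76 of 55421 genes. All of the genes that matched the name also passed the minimum, since the least counted, Rps28, had a total of 24856 counts and the most counted, Rps2, a total of 320259, so there was no gene just outside it. Of the 76 genes, 30 belong to the small subunit, 43 to the large subunit and 3 to the P stalk, which recruits translation factors.

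RNA was sequenced from whole livers of mice given the MDM2 inhibitor HDM201 or its methylcellulose vehicle, in order to ask what the inhibitor does in the aged liver. HDM201 was given by daily oral gavage at 10 mg/kg for 14 days. The old mice were C57BL/6J, and by the labels the females were 20 months and the males 24 months old. Sex and the age of the old mice therefore change together in both interactions with sex given below, and cannot be told apart there. The young vehicle mice were 5 months old and C57BL6/N, so that age and substrain change together and cannot be told apart, and no young mouse received HDM201. Counts were analysed for 27 mice: 5 young vehicle females, 4 old vehicle females, 5 old HDM201 females, 4 young vehicle males, 4 old vehicle males and 5 old HDM201 males. Each library held between 16485900 and 23570458 gene counts. The liver label held in every mouse, where 8 of 8 hepatocyte markers were detected with a summed level between 83759 and 166831 CPM, the counts of a gene relative to library size after TMM scaling. In whole liver, fewer cells of a type and less RNA per cell cannot be told apart.

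Most ribosomal proteins enter each new particle in equal numbers, and unassembled ones are normally degraded. When ribosome assembly falters, free RPL5 and RPL11, joined in a small particle with 5S ribosomal RNA, bind MDM2 and restrain it, which stabilises p53. Messenger RNAs of ribosomal proteins begin with a C followed by a run of C and U, the TOP motif, through which mTORC1 and LARP1 set how strongly they are translated.

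Because the TOP run lies at the very start of the messenger RNA, the 30 bases around the annotated start are shown for the genes that changed with age and for the MDM2-binding pair. The sequences are from RefSeq, build GRCm38.p6, each with 15 bases before the start and 15 from it. Only the first listed start of each gene was used. The capitals mark the longest run of C and T in the window. An entry was matched for 56 of the 76 genes. Rpl13a lies at chr7:45128731-45128760 on the minus strand, Rpl31 at chr1:39367836-39367865 on the plus strand, Rpl39 at chrX:37085208-37085237 on the minus strand and Rpl41 at chr10:128549154-128549183 on the minus strand. Rpl5 lies at chr5:107900513-107900542 on the plus strand and Rpl11 at chr4:136053379-136053408 on the minus strand.
Rpl13a: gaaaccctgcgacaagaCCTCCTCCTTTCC
Rpl31: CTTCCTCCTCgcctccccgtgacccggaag
Rpl39: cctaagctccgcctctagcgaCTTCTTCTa
Rpl41: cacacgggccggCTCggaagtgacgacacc
Rpl5: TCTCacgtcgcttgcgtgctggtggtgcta
Rpl11: ctgaCCCataaggccacggggccggaagtc
The longest run was 13 bases in Rpl13a, 10 in Rpl31 and 8 in Rpl39, and it was 3 in Rpl41, 4 in Rpl5 and 3 in Rpl11. The runs of Rpl13a and Rpl39 lie within the 15 bases from the annotated start, whereas those of Rpl31, Rpl41, Rpl5 and Rpl11 lie wholly before it. Those of Rpl13a, Rpl31 and Rpl5 reach the edge of the window, so they may be longer. Transcript starts were not measured here, so these windows cannot show that a gene lacks the TOP motif. Rpl3 and Rpl30 had no entry. A run of at least 7 C or T on the printed strand, which matches the messenger RNA, was found in this window in 28 of 56 genes (50.0%). The share was 18.5% of all 27025 genes with a promoter entry. Over the 300-base promoter, on either strand, CTTTCC was present in 27 of 56 genes (48.2%) against 26.3% of all, and CCGGAAG, a core that ETS factors bind, in 22 of 56 (39.3%) against 9.12%. CTTTCC can lie within a run of C and T, and these matches describe letters only.

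The ribosomal protein genes together took between 1.21% and 1.88% of the gene counts of a mouse. The share was 1.49% ± 0.150 (SD, n = 5) in young vehicle females, 1.52% ± 0.0486 (n = 4) in old vehicle females and 1.43% ± 0.0651 (n = 5) in old HDM201 females. In males it was 1.35% ± 0.0881 (n = 4) in young vehicle mice, 1.56% ± 0.0629 (n = 4) in old vehicle mice and 1.62% ± 0.162 (n = 5) in old HDM201 mice. The young and old vehicle males did not overlap, with the highest young male at 1.40% and the lowest old male at 1.51%. In females the 5 young mice spanned 1.36% to 1.68% and contained the whole range of the old vehicle mice. A single mouse, HDM201 male 4, gave the highest share, 1.88%, and the next highest of its group was 1.62%.

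**Figure D1:**
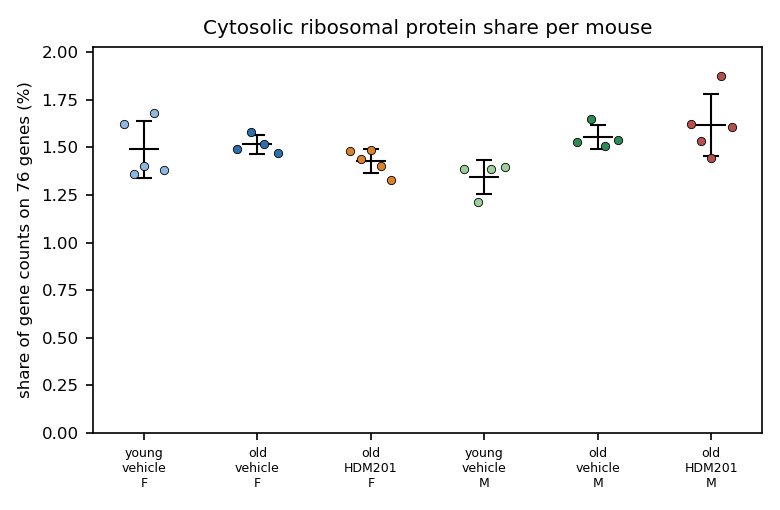
Share of all gene counts, in percent, that fell on the 76 cytosolic ribosomal protein genes, 1 point per mouse, with the group mean and SD as bars. The shares run from 1.21% in young vehicle male 2 to 1.88% in HDM201 male 4, and the old and young vehicle males are the neighbouring groups that do not overlap.

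Within the liver, the messenger RNAs of the 76 genes differed 38.6-fold in level per kilobase of the principal transcript. The median was 204 CPM per kb. The highest were Rpl10, a late-joining large subunit protein, at 672 CPM per kb, the stalk gene Rplp1 at 638, Rps2 at 567, Rps18 at 482 and Rpl13 at 380. The lowest were Rps15a at 17.4 CPM per kb, Rps20 at 42.6, Rpl22 at 48.3, Rpl18 at 61.1 and Rps10 at 66.1. Rps15a, Rps20 and Rpl18 have annotated principal transcripts of 5179, 3706 and 2989 bases, against a median of 882 bases over the 76 genes, which lowers their level per kilobase. These levels also depend on how reads were shared with pseudogenes, of which 309 are named in the table for 61 of the 76 genes. The pseudogenes held 39921 counts, or 0.519% of the 7690348 counts on the ribosomal protein genes, and reads that were discarded as ambiguous are not in either sum.

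Across the 6 groups the levels moved little. The highest group mean of a gene was a median of 1.22 times its lowest group mean, with a range of 1.07 to 1.85 times over the 76 genes. The highest group was old vehicle males for 43 genes and young vehicle females for 18, and the lowest was old HDM201 females for 41 genes and young vehicle males for 28. After the mean of all 76 genes was removed in each mouse, the group means of a gene spanned a median of 0.20 on the log2 scale, and 17 genes spanned more than 0.3. Rpl13a spanned the most, 0.69, from -0.26 in young vehicle females to 0.44 in old vehicle females. Rpl39 spanned 0.64, from -0.41 in old HDM201 females to 0.23 in old vehicle males, and was followed by Rps29 at 0.51, Rps27 at 0.48 and Rpl41 at 0.46.

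The first comparison asked whether MDM2 inhibition altered these genes in old females. None of the 76 genes passed the test (edgeR's quasi-likelihood test, false discovery rate (FDR) under 0.05), against 5.25% of all 14445 genes tested. At an unadjusted p under 0.05 there were 12 of 76 genes, against 22.5% of all genes, and DESeq2 called 3 genes, all lower, against 9.17% of all. The fold changes of the set were small: 61 of 76 genes lay below 0, while 50.2% of all genes lay above it, and the median log2 fold change was -0.08 against 0.00 for all genes. It was -0.12 without HDM201 female 1, -0.06 without HDM201 female 4 and -0.05 without HDM201 female 5. The 30 small subunit genes had a median of -0.09, the 43 large subunit genes -0.07 and the 3 P stalk genes -0.14.

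The lowest value in HDM201 females belonged to Rps29, a small zinc-binding protein of the small subunit. Its level was 48.5, 46.9, 40.8 and 48.8 CPM in the 4 old vehicle females and 44.9, 38.1, 32.8, 33.9 and 31.9 CPM in the 5 HDM201 females. The groups overlapped through HDM201 female 1, and the log2 fold change was -0.36 (SE 0.103, edgeR FDR 0.0670). Rps28, also of the small subunit, had a log2 fold change of -0.31 (edgeR FDR 0.0698) and Rps21 of -0.27 (edgeR FDR 0.158). At the other end lay Rpl3, which lies near the peptidyl transferase centre. Rpl3 measured 246, 265, 274 and 261 CPM in vehicle females and 293, 312, 344, 291 and 276 CPM in HDM201 females, and every HDM201 mouse was above every vehicle mouse. Its log2 fold change of 0.21 (SE 0.0753) did not pass the test (edgeR FDR 0.129). Rpl12 followed at 0.07 and Rps19 at 0.06. Groups did not overlap for 3 of the 76 genes, namely Rpl3, Rpl35a and Rpl37a, against 9.93% of all genes. Without HDM201 female 1, the mouse with the highest mean log2 level of the set in its group, 6 genes were called (4.89% of all). Without old vehicle female 3 it was 1 gene (6.52% of all). A correction for exonic length called 2 genes, both lower, against 5.64% of all.

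The genes whose products bind MDM2 were examined as their own group, since HDM201 occupies the p53 pocket of the same protein. None of these 14 genes passed the test in any comparison. Of all genes, 5.25% were called with HDM201 in females, and over the comparisons the share ran from 0.00709% with HDM201 in males to 31.8% with age in females. Rpl11 measured 156, 165, 165 and 166 CPM in old vehicle females and 184, 164, 159, 151 and 145 CPM in HDM201 females. Rpl5 measured 199, 217, 215 and 198 CPM in old vehicle females and 214, 223, 215, 200 and 182 CPM in HDM201 females. Both ranges in HDM201 females contained every vehicle value, and the log2 fold changes were -0.03 (SE 0.0746) for Rpl11 and -0.01 (SE 0.0731) for Rpl5. Over the 14 genes the values ran from -0.20 for Rpl37 to 0.02 for Rps27a in females, with a median of -0.07. In males they ran from -0.13 for Rpl26 to -0.01 for Rps14, with a median of -0.06. Rps6, the ribosomal substrate of S6 kinase, had log2 fold changes of -0.13 (edgeR FDR 0.346) in females and -0.05 (edgeR FDR 0.818) in males.

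In old males HDM201 likewise left no gene past the threshold, and the contrast as a whole called 0.00709% of 14109 genes. At an unadjusted p under 0.05 there were 2 of 76 genes against 12.1% of all, and DESeq2 called none of the 76 (0.999% of all). The median log2 fold change was -0.05 against 0.01 for all genes, and 15 of 76 genes lay above 0, against 52.8% of all. Before TMM scaling the mean share of counts went the other way, from 1.56% in old vehicle to 1.62% in HDM201 males. The mean TMM factors of these groups were 0.979 and 1.05. These values depended on single mice: without HDM201 male 3 the median was -0.0048 with 33 genes above 0, and without HDM201 male 4 it was -0.09 with 4 above 0. On log2(FPKM + 1) over the mice with counts the median was 0.090, against 0.081 for all genes. Rpl35a was the lowest at -0.20 (edgeR FDR 0.400), Rps18 followed at -0.16 and Rpl7 at -0.14. Rps19, mutated in Diamond-Blackfan anaemia, was the highest at 0.25 (SE 0.0904, edgeR FDR 0.338). Its level was 115, 143, 137 and 137 CPM in the 4 old vehicle males and 150, 166, 141, 171 and 156 CPM in the 5 HDM201 males, so the groups overlapped through 1 mouse on each side. Rpl3 had a value of 0.11 and Rpl12 of 0.10, and with Rps19 these were also the 3 highest values in females. Groups did not overlap for 2 of 76 genes, Rpl6 and Rps18, both lower, against 4.03% of all. The difference of the HDM201 effect between the old females and the older males was tested directly by an interaction, in which 0 of 76 genes passed (0.107% of all genes). At an unadjusted p under 0.05 that interaction held 1 of 76 genes, Rpl13a, against 18.5% of all. Its median was -0.03, and 28 of 76 genes lay above 0, against 49.8% of all, with the lowest value, -0.30, for Rps29 (edgeR FDR 0.464) and the highest, 0.15, for Rpl7.

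**Figure D2:**
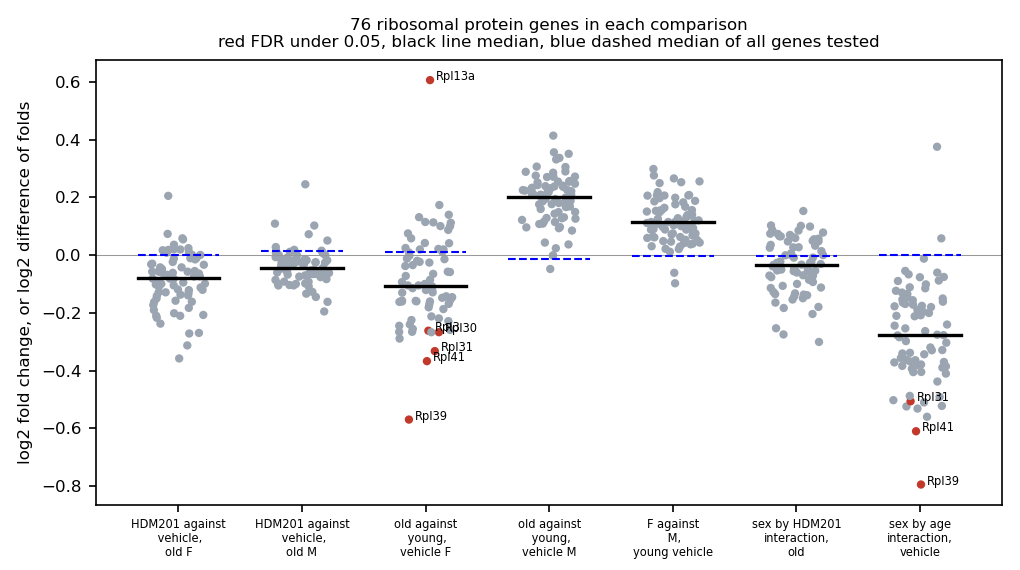
Log2 fold change of each of the 76 genes in the 5 comparisons and the 2 interactions (the difference between the female and the male log2 fold change), 1 point per gene. Red points passed FDR under 0.05, black lines are medians of the 76 genes and blue dashed lines medians of all genes tested. Red points appear in old against young females (6 genes) and in the sex by age interaction (3 genes), and the points of old against young males lie above 0 for 73 of 76 genes.

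Age was compared next, in vehicle mice of each sex. The old vehicle mice are the same animals that served as controls for HDM201, so the age and HDM201 values of a gene are not independent and are only set side by side. In females 6 of 76 genes passed the test, a smaller share than the 31.8% of all 14233 genes. A single gene was higher, Rpl13a, against 16.8% of all genes, and 5 genes were lower, Rpl39, Rpl41, Rpl31, Rpl30 and Rpl3, against 15% of all. All 6 encode large subunit proteins, and none of the 30 small subunit genes passed. The fold changes of both subunits lay mostly below 0, with medians of -0.13 for the large and -0.09 for the small subunit genes. Above 0 lay 9 of 43 large and 9 of 30 small subunit genes. The median log2 fold change of the 76 genes was -0.11, against 0.01 for all genes, and 20 of 76 genes lay above 0, against 51.0% of all. The mean share of counts, taken before TMM scaling, was not lower in old females, at 1.52% against 1.49% in young ones. The mean TMM factor was 1.05 in old vehicle and 0.955 in young females, so the direction of the set differs between raw shares and scaled levels. Groups did not overlap for 11 of 76 genes, against 25.8% of all, with Rpl13a higher and 10 genes lower.

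Rpl39, a short protein in the wall of the exit tunnel, fell the most. It measured 86.0, 64.9, 61.7, 68.9 and 59.4 CPM in the 5 young females and 42.4, 47.6, 47.8 and 43.2 CPM in the 4 old vehicle females. Every old female was below every young one, and the log2 fold change was -0.57 (SE 0.106, edgeR FDR 0.00182). The HDM201 females measured 45.2, 45.5, 36.2, 39.6 and 34.2 CPM. In males the levels were 57.3, 62.2, 71.3 and 62.9 CPM in young and 67.7, 79.2, 71.2 and 79.3 CPM in old vehicle mice. The male groups overlapped, and their log2 fold change was 0.24 (SE 0.0946, edgeR FDR 0.178). The female log2 change minus the male one was -0.79 (SE 0.146), which passed the interaction test (edgeR FDR 0.0104).

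Rpl41, the smallest ribosomal protein, measured 176, 124, 145, 178 and 153 CPM in young females and 120, 120, 112 and 122 CPM in old vehicle females. The groups came close but did not overlap, and the log2 fold change was -0.37 (SE 0.104, edgeR FDR 0.0176). In males Rpl41 measured 149, 127, 167 and 155 CPM in young mice and 169, 175, 162 and 204 CPM in old vehicle mice, a log2 fold change of 0.25 (edgeR FDR 0.225). Female minus male, the log2 change of Rpl41 with age differed by -0.61 (SE 0.156, edgeR FDR 0.0372).

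Rpl31, which sits at the mouth of the exit tunnel, lay lower in old females and higher in old males, without overlap between young and old in either sex. It measured 145, 107, 121, 151 and 115 CPM in young females and 95.5, 102, 103 and 99.7 CPM in old vehicle females, a log2 fold change of -0.33 (SE 0.103, edgeR FDR 0.0269). In males Rpl31 measured 112, 104, 116 and 109 CPM in young and 117, 127, 127 and 128 CPM in old vehicle mice, a log2 fold change of 0.19 (SE 0.0813) that did not pass the test (edgeR FDR 0.218). The interaction was -0.51 (SE 0.132, edgeR FDR 0.0413).

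Rpl30 and Rpl3 passed narrowly. Rpl30 measured 145, 110, 117, 133 and 116 CPM in young females and 96.2, 111, 103 and 96.7 CPM in old vehicle females, and the groups overlapped through 1 mouse on each side. The log2 fold change of Rpl30 was -0.27 with an SE of 0.0939 (edgeR FDR 0.0457). Rpl3 measured 364, 338, 275, 318 and 295 CPM in the young females and, as given above, at most 274 CPM in the old vehicle females, a log2 fold change of -0.26 (SE 0.0906, edgeR FDR 0.0426). In HDM201 females Rpl3 lay between 276 and 344 CPM, within the range of the young ones. This is described only, because both differences use the same old vehicle mice.

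Rpl13a, a surface protein of the large subunit that also takes part in translational silencing after interferon-gamma, was the gene that rose. It measured 82.4, 73.2, 91.1, 108 and 96.3 CPM in young females and 128, 146, 135 and 133 CPM in old vehicle females. Every old female was above every young one, with a log2 fold change of 0.61 (SE 0.105, edgeR FDR 0.00120). HDM201 females measured 149, 108, 119, 104 and 108 CPM. In males Rpl13a measured 94.5, 67.3, 86.5 and 85.6 CPM in young and 94.9, 101, 99.98 and 97.2 CPM in old vehicle mice, a log2 fold change of 0.24 (SE 0.110, edgeR FDR 0.233), and those groups also did not overlap. The interaction for Rpl13a was 0.38 and did not pass the test (edgeR FDR 0.168). On the authors' FPKM values the rise in females was 0.26 on the log2(FPKM + 1) scale and no longer passed the test. Rpl36a at 0.17 and Rps19 at 0.14 had the next highest values in females.

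**Figure D3:**
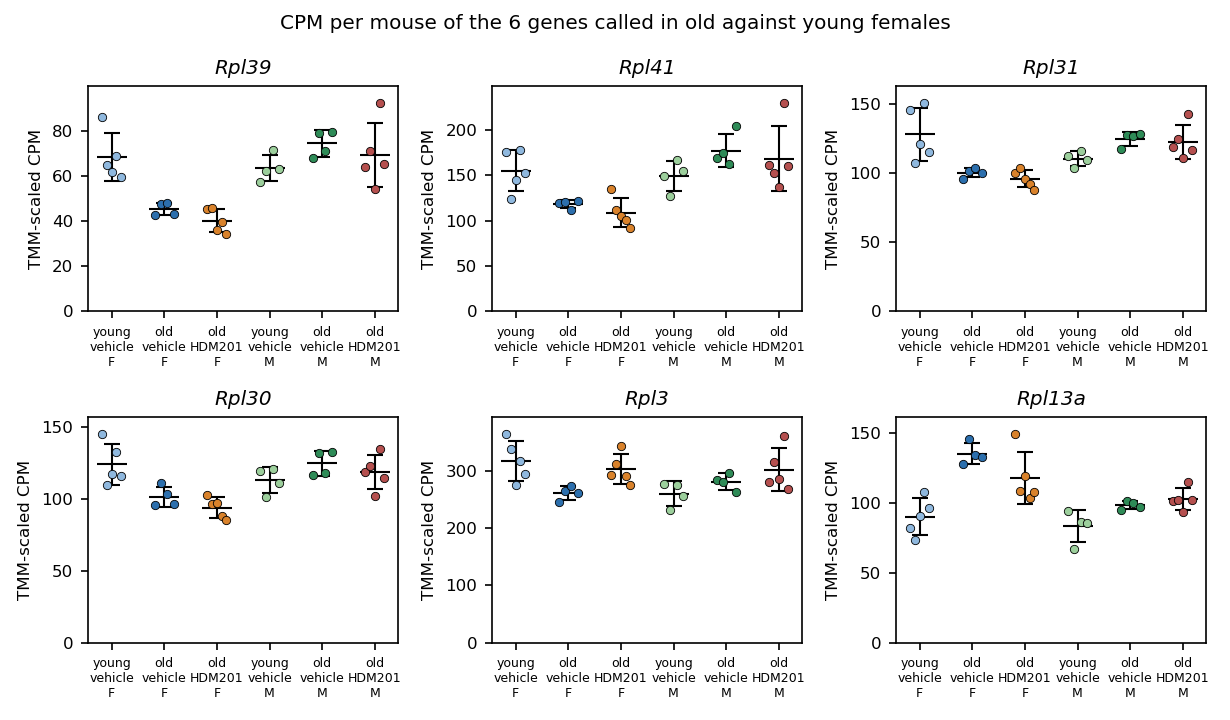
TMM-scaled CPM in each mouse for the 6 genes that passed FDR under 0.05 in old against young females, with group means and SDs. In females Rpl39, Rpl41, Rpl31 and Rpl3 are lower and Rpl13a is higher in every old vehicle mouse than in any young mouse, while Rpl39 and Rpl41 overlap between young and old males.

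The number of genes called in females depended on single mice. The median of the set was -0.16 without young female 2, -0.07 without young female 1 and -0.06 without young female 4. Leaving out 1 mouse at a time gave between 3 and 14 genes. It was 3 without old vehicle female 1 (24.7% of all genes), old vehicle female 4 (24.9%) or young female 1 (27.3%), and 14 without young female 2 (29.7%). Young females 1 and 4 had the highest mean log2 level of the set in their group, with deviations of 0.24 and 0.23 from the average mouse, while the other young females lay between -0.11 and -0.04. The slope of log2 level on log10 exonic length over the genes outside the set was -0.12 and -0.18 in young females 1 and 4, meaning relatively more counts on short genes, and -0.03 to 0.099 in the other young females. Young male 2, the lowest mouse of its group for the set, had a slope of 0.17, and the others of its group lay between -0.076 and 0.15. The part of this slope in the results was tested only by the length correction given further on. Rpl39, Rpl41 and Rpl13a passed in each of those 9 fits, whereas Rpl31 missed the threshold in 4, Rpl30 in 6 and Rpl3 in 7.

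In males the pattern with age was broad and shallow. None of the 76 genes passed the test, against 3.69% of all 13755 genes, and DESeq2 called 3, against 7.65% of all. However, 73 of 76 genes lay above 0, against 47.7% of all genes, and the median log2 fold change was 0.20 against -0.01 for all genes. An unadjusted p under 0.05 was reached by 26 of 76 genes, against 21.9% of all. Groups did not overlap for 26 genes, all of them higher in old males, while 7.33% of all genes were higher without overlap. All 43 large subunit genes, 27 of 30 small subunit genes and all 3 P stalk genes lay above 0, and the medians of the large and small subunit genes were 0.20 and 0.21.

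The highest value in males belonged to Rpl35a, a large subunit protein that, like Rps19, is mutated in Diamond-Blackfan anaemia. It measured 93.5, 76.9, 82.0 and 93.8 CPM in young males and 107, 123, 101 and 128 CPM in old vehicle males. The groups did not overlap, and the log2 fold change was 0.41 (SE 0.109), which did not pass the test (edgeR FDR 0.0618). Rpl37 followed at 0.36 (edgeR FDR 0.111) and Rpl38 at 0.35 (edgeR FDR 0.0731). Of the MDM2-binding pair, Rpl11 lay above the upper quartile of the set, 0.24, and Rpl5 near its median. Rpl11 measured 210, 148, 178 and 167 CPM in young and 195, 225, 211 and 213 CPM in old vehicle males (log2 fold change 0.27, edgeR FDR 0.217). Rpl5 measured 219, 213, 241 and 230 CPM in young and 258, 264, 261 and 253 CPM in old vehicle males (log2 fold change 0.21, edgeR FDR 0.194). Rpl5 did not overlap between young and old males, whereas Rpl11 did. The 3 values below 0 were those of Rps25 at -0.05, Rps27 at -0.0019 and Rpsa at -0.00098. In the stalk, Rplp2 had a value of 0.24, Rplp0 of 0.11 and Rplp1 of 0.02, and Rps6 had one of 0.23 (edgeR FDR 0.165).

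In old against young females the same genes read differently. Rpl11 measured 201, 167, 192, 243 and 190 CPM in the young females, above every old vehicle female, with a log2 fold change of -0.27 that did not pass the test (edgeR FDR 0.0575). Rpl5 had a log2 fold change of -0.17 (edgeR FDR 0.145), Rplp1 of -0.27 (edgeR FDR 0.0792), Rplp0 of 0.04, Rplp2 of 0.06 and Rps6 of 0.01. The 14 MDM2-binding genes had medians of -0.07 in females and 0.20 in males.

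The difference between the sexes in the change with age was tested by an interaction over the vehicle mice. Because the old males were older than the old females, it cannot separate sex from the age of the old mice. The interaction called 3 of 76 genes, Rpl39, Rpl41 and Rpl31, each with a lower log2 change with age in females than in males. Of all 14721 genes, 3.92% were called in either direction and 1.90% in this one. For 74 of 76 genes the value lay below 0, against 50.1% of all genes above 0, and the median was -0.28 against 0.00 for all genes. An unadjusted p under 0.05 was reached by 35 of 76 genes, against 21.5% of all. Rpl36 had a value of -0.56 (edgeR FDR 0.118), Rpl11 of -0.52 (edgeR FDR 0.0609) and Rpl5 of -0.36 (edgeR FDR 0.0684). The count ranged from 1 to 9 when single mice were left out. It was 9 without young male 1 (7.93% of all genes), 7 without young female 2 (2.50%) and 5 without young female 3 (5.14%). It was 1 without each of 9 others (1.39% to 3.41% of all). Rpl39 passed in all of those fits, whereas Rpl41 and Rpl31 each missed the threshold in 11 of 17.

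The sexes were also compared in young vehicle mice, where none of the 76 genes passed the test (10.5% of all 13875 genes). At an unadjusted p under 0.05 there were 3 of 76 genes against 27.6% of all, and DESeq2 called none of the 76 (14% of all). The median log2 fold change, female over male, was 0.11 against 0.00 for all genes, and 74 of 76 genes lay above 0, against 49.5% of all. Without young male 2, the median was 0.06 and 60 genes lay above 0. It was 0.07 without young female 1, 0.08 without young female 4 and 0.17 without young female 2. The highest values were those of Rps2 at 0.30, Rpl3 at 0.28 (edgeR FDR 0.117) and Rpl36 at 0.27, and the lowest were those of Rps21 at -0.10 and Rps27 at -0.06. Groups did not overlap for 2 of 76 genes, Rpl15 and Rpl36a, against 12.8% of all.

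Fold changes differed by gene length. Among the genes outside the set with under 1 kb of exons, the median log2 fold change was -0.11 in old against young females, 0.09 in old against young males, 0.07 in young females against males and -0.24 in the sex by age interaction. For HDM201 it was -0.05 in females, -0.09 in males and 0.07 in the interaction with sex, where the 76 genes had -0.03. Of the 76 genes, 9 have under 1 kb of exons, 32 have 1 to 2 kb, 29 have 2 to 4 kb and 6 have 4 to 8 kb. These lengths are unions of all annotated exons, whereas the median principal transcript of the set was 882 bases. Rps19, for example, has 4685 bases of exons and a principal transcript of 774. Genes with short transcripts are thus set beside longer genes, and neither the classes nor the correction below can remove an effect of transcript length. In old against young females the 32 genes of 1 to 2 kb had a median of -0.13, against -0.03 for the other genes of that length, and the 29 genes of 2 to 4 kb had -0.09, against 0.00. With age in males the same classes had 0.21 against 0.04 and 0.18 against -0.01. The longest genes, of 8 kb or more, had the opposite sign in the age and sex comparisons, at 0.03, -0.05, -0.08 and 0.06 in the same order. With a correction for exonic length fitted in each mouse, the median of the 76 genes was -0.08 in old against young females, 0.17 in old against young males and -0.20 in the interaction. In young females against males it was 0.05, against 0.11 without the correction, and 60 of 76 genes lay above 0. That correction used exonic length, and the part of transcript length in these results was not tested.

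**Figure D4:**
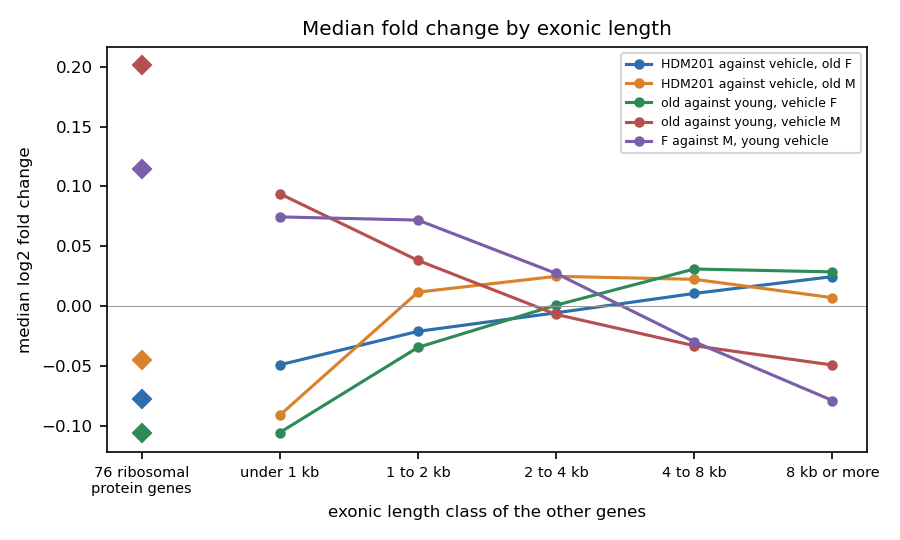
Median log2 fold change of the 76 ribosomal protein genes (diamonds) and of all other tested genes in 5 classes of exonic length (circles joined by lines), 1 colour per comparison. In old against young males the diamond, 0.20, lies above the circles of every class, and in old against young females it lies at -0.11, as does the circle of genes under 1 kb, a class that holds 9 of the 76 genes.

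Other cell types of the liver also differed between the groups. The summed level of 8 B and plasma cell markers was 18.5 to 27.8 CPM in young females, 169 to 245 in old vehicle females and 76.3 to 232 in HDM201 females. In males it was 12.4 to 38.1 CPM in young, 117 to 244 in old vehicle and 341 to 470 in HDM201 mice. The sum of 8 Kupffer cell and macrophage markers was 204 to 308 CPM in young, 311 to 627 in old vehicle and 186 to 312 in HDM201 females, and 88.9 to 200 CPM, 126 to 405 and 176 to 476 in the male groups in the same order. The sum of 5 cholangiocyte markers was 42.9 to 49.7 CPM in young, 49.9 to 71.6 in old vehicle and 83.8 to 148 in HDM201 females, and 26.2 to 42.6, 54.9 to 74.6 and 66.5 to 203 CPM in the male groups. The sum of 4 erythroid markers was 153 to 187, 161 to 247 and 17.2 to 161 CPM in the female groups and 230 to 320, 277 to 1104 and 98.3 to 202 CPM in the male groups. All markers of these lists were detected in every group. Mitochondrially encoded genes took 4.56% to 5.15% of counts in young, 3.11% to 3.58% in old vehicle and 2.86% to 3.68% in HDM201 females, and 4.61% to 5.55%, 3.81% to 4.77% and 3.39% to 4.39% in the male groups. Their part in the ribosomal protein results was not tested.

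Several ribosomal genes fall outside the naming rule, and some of them changed more than any of the 76. Rpl22l1 is a paralog of Rpl22 that can take its place in the large subunit. It measured 37.2, 39.8, 24.9, 32.0 and 29.1 CPM in young females, 12.8, 13.8, 16.7 and 11.8 CPM in old vehicle females and 24.2, 23.2, 20.4, 23.9 and 20.4 CPM in HDM201 females. The 3 groups did not overlap, and the HDM201 females lay between the others. With age the level of Rpl22l1 fell by 1.23 on the log2 scale, which passed at an edgeR FDR of 0.000111 (SE 0.143). With HDM201 it rose by 0.70, at an edgeR FDR of 0.00788 (SE 0.103), over the same old vehicle mice. In males its means were 24.7 ± 4.91 CPM in young (n = 4), 22.7 ± 4.37 in old vehicle (n = 4) and 31.1 ± 10.6 in HDM201 mice (n = 5), with 1 HDM201 mouse, male 4, at 49.6. The interaction of sex and age for Rpl22l1 was -1.10 (SE 0.238) at an edgeR FDR of 0.0197.

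Rps4l, a paralog of Rps4x, had a log2 fold change of -0.70 (SE 0.193, edgeR FDR 0.0150) in old against young females. Rps27l, a p53 target, measured 92.7, 97.1, 90.5 and 93.5 CPM in old vehicle females and 152, 99.5, 102, 106 and 99.2 CPM in HDM201 females. Every HDM201 female was above every vehicle female, with a log2 fold change of 0.25 (SE 0.120) that did not pass the test (edgeR FDR 0.247). In males the log2 fold change of Rps27l with HDM201 was 0.08 (edgeR FDR 0.720). Rps3a1, Rack1 and Fau, which encode constituents of the small subunit under other names, had values of -0.08, -0.04 and -0.01 with age in females and of 0.21, 0.20 and 0.19 in males, and none passed.

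**Figure D5:**
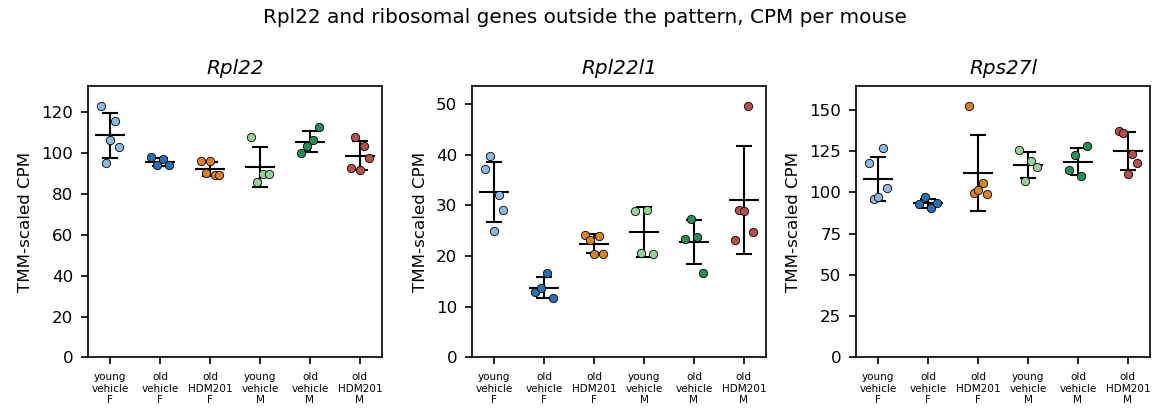
TMM-scaled CPM in each mouse for Rpl22 and for Rpl22l1 and Rps27l, which lie outside the naming rule, with group means and SDs. Rpl22l1 is lowest in old vehicle females, at a mean of 13.8 CPM.

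Genes that act on ribosome supply were read beside the set. Of 48 ribosome biogenesis genes, 3 were lower with HDM201 in females, near the 5.25% of all genes called, namely Rrp12 at -1.14 (edgeR FDR 0.00987), Utp18 at -0.40 and Nop56 at -0.28, and none was higher. With age in females 3 of 48 were higher, among them Rrp12 at 0.71 and Tcof1 at 0.52, and 5 were lower, among them Rrp9 at -0.45 and Nop10 at -0.40, a smaller share than the 31.8% of all genes called. The median of the 48 genes was -0.06 with HDM201 and -0.01 with age. In males none of the 48 passed in either comparison.

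Of 20 regulators in the mTORC1, Myc and TOP list, 7 passed with age in females, near the share of all genes called in that comparison, 31.8%, so the count does not set the list apart. Mycn fell by 2.32 on the log2 scale (edgeR FDR 0.00240), Eif4ebp1, a repressor of cap-dependent translation, by 0.59 and Rheb, the activator of mTORC1, by 0.41. Sesn2, which restrains mTORC1, rose by 0.54 and Larp1, which binds TOP messenger RNAs, by 0.50 (edgeR FDR 0.00120). Larp4 and Sesn1 also fell. The interaction of sex and age passed for 3 of 20, Larp1 at 0.62, Eif4ebp1 at -0.76 and Rheb at -0.39, against 3.92% of all genes. With HDM201 in females 1 of 20 passed, near the 5.25% of all genes called, so this count does not set the list apart. It was Ddit4, an inhibitor of mTORC1 and a p53 target, at -0.79 (edgeR FDR 0.0264). Of 19 translation factors that also carry TOP motifs, 2 were lower with age in females, Eif4a2 at -0.51 and Eif3e at -0.28, none was higher, and the median was -0.06, while 15% of all genes were called lower.

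Subunits of other large assemblies gave a scale for the set in old against young females, where 15% of all genes were called lower and 16.8% higher. Of 73 nuclear-encoded subunits of the respiratory chain and ATP synthase, 52 were lower and none higher, with a median log2 fold change of -0.36. Of 77 mitochondrial ribosomal protein genes, 19 were lower and 2 higher (median -0.15), and of 38 proteasome subunits 12 were lower and 1 higher (median -0.12). For the cytosolic ribosomal protein genes the corresponding values were 5 lower, 1 higher and a median of -0.11. In old against young males the medians were -0.06 for the respiratory chain and ATP synthase, -0.06 for mitochondrial ribosomal proteins and -0.20 for the proteasome. The cytosolic ribosomal protein genes had 0.20. With HDM201 in females the proteasome median was 0.15, with 2 subunits higher, and that of the cytosolic ribosomal protein genes -0.08.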

How the data were processed

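PolyA RNA libraries of 29 livers were deposited as FPKM values and 27 of them as gene counts. Alignment by the authors was to mm10 by STAR. The deposited counts come from HTSeq and the deposited FPKM values from Cufflinks. Versions and the strand setting are not given in the sources used here, so antisense and overlapping genes cannot be told apart. The counts of old vehicle male 1 and young vehicle male 5 were not used here, and Rpl13 is listed without an FPKM value. Genes were filtered (minimum count 10, total 15), scaled by TMM and tested with edgeR 4.0.16 (R 4.3.3) on the groups of each comparison, with Benjamini-Hochberg adjustment and an FDR of 0.05. CPM uses 1 TMM scaling over all 27 mice. Lengths are from GENCODE M21. The ribosomal protein genes and all lists were chosen with earlier results of these data known. In each comparison the called genes, or the 3 most extreme, are named, together with the MDM2-binding, stalk and Rps6 genes. Alternatives were RLE scaling, DESeq2 1.42.0, no filter, all 6 groups in 1 fit, the replicate number as a block, a length offset, limma 3.58.1 on log2(FPKM + 1), also over only the mice with counts (added after seeing the data), and leaving out each mouse. One gene outside the naming rule, and a share of counts that included it, are not reported here. The fit was tested on simulated data. No library was a duplicate: replicate pairs differed by a chi-square of at least 12.8 per degree of freedom over 48 pairs.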

Additional observations from a re-analysis of the deposited data

Results flagged for a closer look

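The change with age differed between the sexes for 3 ribosomal protein genes by the interaction test (edgeR, FDR under 0.05): Rpl39 by -0.79, Rpl41 by -0.61 and Rpl31 by -0.51 on the log2 scale, female minus male. Outside the naming rule it differed for Rpl22l1 by -1.10. Since the old males were also older than the old females, these differences cannot be assigned to sex alone.

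Single mice stood apart from their group by Dixon's test in 12 of 174 checks of a gene or share within a group, where chance gives about 1 in 20. HDM201 male 4 was high for Rpl22l1 at 49.6 CPM (others 23.2 to 29.1), Rpl38 at 76.1 (50.3 to 54.9), Rpl41 at 230 (138 to 161) and Rps29 at 85.6 (48.5 to 58.4). Young vehicle male 2 had the lowest share of counts on the set, 1.21% against 1.39% to 1.40% in the others of its group. Old vehicle male 2 was low for Rpl29 at 181 CPM and Rpl31 at 117 CPM. Among old vehicle females, mouse 1 was low for Rpl11 at 156 CPM, mouse 2 was high for Rpl29 at 223 CPM and Rpl35a at 96.5 CPM, and mouse 3 was high for Rps4l at 14.3 CPM. HDM201 female 1 was high for Rpl36 at 118 CPM (others 92.0 to 97.2).

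Old vehicle male 1, which has FPKM values and no counts here, had a summed FPKM of 48410 over the 75 ribosomal protein genes with a value. The 4 old vehicle males with counts lay between 29524 and 33538.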

How the results depend on the processing

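Among the 76 genes, the number called moved most. In old against young females it was 6, and 2 at an FDR of 0.01, 10 by DESeq2, 13 with all 6 groups in one fit, 3 with the replicate number as a block, 15 by limma on log2(FPKM + 1) and 3 to 14 with 1 mouse left out. In the sex by age interaction it was 3 (3.92% of all genes), and 0 at an FDR of 0.01. It was 15 by DESeq2 (7.77% of all), 10 with all 6 groups (5.57%), 1 with the block (1.24%) and 7 by limma on FPKM (1.17%). With 1 mouse left out it was 1 to 9 (1.39% to 7.93% of all). With HDM201 in females it was 0 (5.25% of all genes), and 3 by DESeq2 (9.17%), 1 without the filter (3.47%) and 2 with the length offset (5.64%). With 1 mouse left out it was 0 to 6 (1.27% to 6.52% of all). In old against young males it was 0 (3.69% of all genes), 3 by DESeq2 (7.65%) and 5 with all 6 groups (13.1%). With 1 mouse left out it was 0 to 1 (1.03% to 4.15% of all). In young females against males it was 0 (10.5% of all), and 5 with all 6 groups (16.2%). The remaining counts stayed within 1.5 times. Replicate numbers did not pair the mice: correlations of deviations within a number ran from -0.17 to 0.17, and in no comparison did every pair exceed 0.1.

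Among the alternatives fitted on the counts, the median of the set kept its sign with 1 exception. In the sex by HDM201 interaction without HDM201 male 4 it was 0.014. With 1 mouse left out it ran from -0.121 to -0.046 with HDM201 in females, -0.092 to -0.0048 with HDM201 in males, -0.160 to -0.060 and 0.139 to 0.233 with age in females and males, and 0.057 to 0.172 between young sexes. With limma on FPKM, where 75 genes have a value and 29 mice enter, it was 0.021 in old against young females and 0.38 in old against young males, with all genes at 0.0997 and 0.101. These FPKM values were not scaled by TMM. With age in females the FPKM median was opposite in sign to the one on counts, but on both it lay below that of all genes. On that scale the sign turned for Rpl5 (0.030) with HDM201 in females, Rpl11 (0.035) with HDM201 in males, Rps19 (-0.18), Rpl5 (0.13) and Rpl11 (0.013) with age in females, Rps25 (0.21), Rps27 (0.19) and Rpsa (0.30) with age in males, Rps21 (0.0066) and Rps27 (0.12) between young sexes, Rpl11 (-0.036) in the sex by HDM201 interaction, and Rpl13a (-0.30) and Rpl29 (-0.020) in the sex by age interaction. The 2 mice without counts, old vehicle male 1 and young male 5, had summed FPKM values of 48410 and 21805, outside the ranges of their groups. Without them, an alternative chosen after seeing the data, the FPKM median was 0.20 in old against young males and 0.090 with HDM201 in males (all genes 0.081). It was -0.16 in the sex by HDM201 interaction (all genes -0.088). In the sex by age interaction 8 genes were then called (3.20% of all). With HDM201 in males the FPKM median was opposite in sign to the one on counts and lay near that of all genes. The sign then differed from that on counts for Rpl35a (0.097), Rpl5 (0.11) and Rpl11 (0.10) with HDM201 in males, Rpsa (0.059) with age in males, Rps27 (0.015) between young sexes, Rpl3 (-0.026), Rpl10a (-0.075), Rpl5 (-0.082) and Rpl11 (-0.10) in the sex by HDM201 interaction and Rpl13a (-0.12) in the sex by age interaction. With the block it turned for Rpl5 (0.034) and Rpl11 (0.00080) with HDM201 in females. The cause was not tested. Leaving out single mice turned values near 0: Rps19 (-0.051 to 0.11), Rpl5 (-0.037 to 0.034) and Rpl11 (-0.086 to 0.0043) with HDM201 in females, Rpl11 (-0.060 to 0.0013) with HDM201 in males, Rps25 (-0.11 to 0.026), Rps27 (-0.062 to 0.057) and Rpsa (-0.066 to 0.087) with age in males, Rps27 (-0.19 to 0.023) between young sexes and Rpl11 (-0.050 to 0.038) in the sex by HDM201 interaction.

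Without the 10 most abundant genes the mean share of counts in the females was 1.84% (young), 1.90% (old vehicle) and 1.80% (HDM201), and in the males 1.66%, 1.99% and 2.05% in that order. With 4 or 5 mice in a group, the median SE of a log2 fold change was 0.07 to 0.12 in the 5 comparisons, which limits what could be called.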
